A study of Brassica oleracea with 107 samples.

Results

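The 150 genes described here were chosen from the 13120 embryo genes that the authors listed for Brassica oleracea, whose crops include cabbage, in seeds matured warm or cool. They stood highest in embryos on day 1 at 26 °C. The score of a gene was its log2(TPM + 1) on day 1 at 26 °C minus the highest of its other 14 embryo columns, TPM being a transcript abundance scaled by gene length and to 1000000 per library. Genes were kept when day 22 lay within 2 log2 units of day 0 at 16 °C, and when the day 3 excess at 26 °C was under 1 log2 unit. Of the 9495 genes that met both conditions, 1992 had their highest embryo value on day 1 at 26 °C, and the top 150 by score were taken. A further 97 genes scored as high as the last member but failed a condition, 50 of them on day 3 and 62 on day 22, with 15 failing both.

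The embryo groups were seeds moved to 26 °C and sampled on days 1, 3, 7, 15, 18 and 22, a recovery group moved back from 26 °C to 16 °C and sampled on days 18 and 22, and seeds kept at 16 °C and sampled on days 0, 1, 3, 7, 15, 18 and 22. The endosperm fraction, dissected from seeds of the same design together with the seed coat, had the same groups and also an hour series at 26 °C and 16 °C at hours 1, 24 and 72. All plants had grown at 21 °C until bolting and then at 16 °C until the bent-cotyledon stage, and the treatment started there. There were 3 libraries in every group but 1, the day 18 endosperm group at 16 °C, which had 2. The deposited tables give 1 value per group, so no value here has an SD and no difference has a replicate check. Sequencing depth is unknown. The words 2-fold higher or lower mean a difference of 1 or more on the log2(TPM + 1) scale, on which changes at low TPM come out too small. No test can be made of such a difference, and each count is set beside the share of all genes that differed as much.

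The embryo fills with oil and storage protein during seed maturation and then dries into a quiescent state. The endosperm and the maternal seed coat enclose it, feed it early on and later hold back germination, and temperature during maturation is known to alter the dormancy of the seed. None of the deposited identifiers matched the 53125 genes of the RefSeq gene table (assembly BOL), and the tables pair no identifier with a name. Genes are therefore given by identifier, no function is named, and markers of the embryo or of other cell types could not be looked up.

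The values that the rule used come first, as a description. The members were at a median of 10.3 TPM on day 1 at 26 °C, against 3.70 TPM on day 1 and 3.43 TPM on day 0 at 16 °C. The median TPM ratio of 26 °C over 16 °C on day 1 was 3.02, with quartiles of 2.34 and 4.01. On the log2(TPM + 1) scale 128 of the 150 were 2-fold higher at 26 °C on day 1, where 9.26% of 11899 genes were and 3.93% were lower, and only 59 stood 2-fold above every other column. The rule fixed this count, and nothing is read from it. The peak was one of modest transcripts: 42 members were under 5 TPM even on day 1 at 26 °C, 78 lay from 5 to under 50 TPM and 30 at 50 TPM or more. Together the members held 0.868% of the listed TPM on day 1 at 26 °C and 0.364% at 16 °C. All 150 passed a filter of 1 TPM in at least 1 embryo column, 16 of them through day 1 at 26 °C alone.

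**Figure D1:**
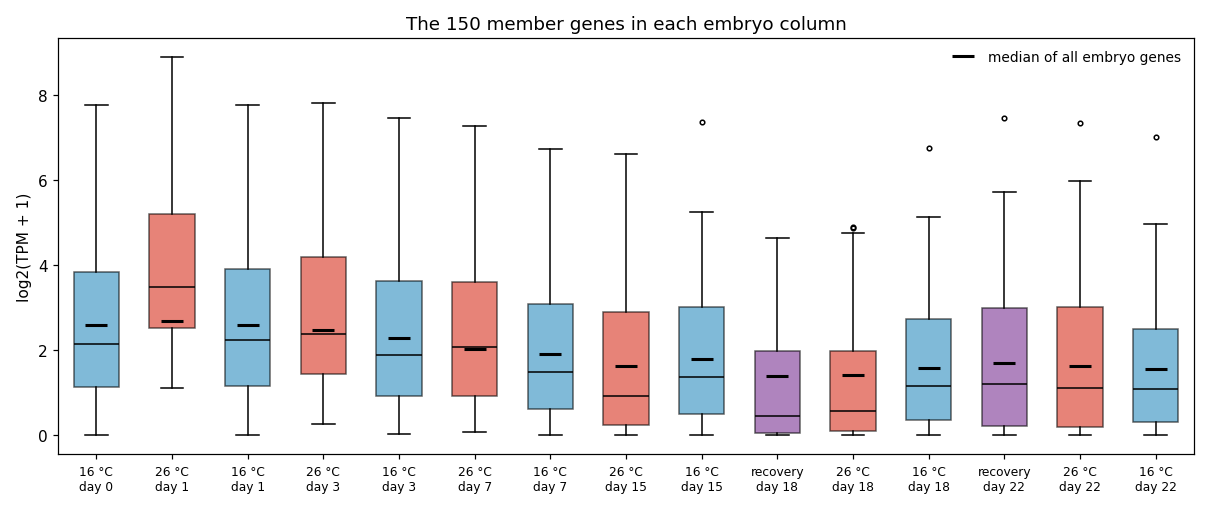
Box plots of log2(TPM + 1) for the 150 members in each of the 15 embryo columns, by day from left to right. Boxes show quartiles, lines medians, whiskers the farthest gene within 1.5 box lengths, circles genes beyond, and black bars the median of all 13120 embryo genes. The members' median is above that of all genes on day 1 at 26 °C and just above it on day 7 at 26 °C, and below it in the other columns.

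The gene with the highest score, Bo5g008470, was at 56.7, 14.8, 8.72, 3.67, 1.30 and 0.809 TPM at 26 °C on days 1, 3, 7, 15, 18 and 22, against 14.8, 12.1, 7.85, 2.54, 7.17 and 6.98 TPM at 16 °C on the same days and 8.64 TPM on day 0. Its day 1 value at 26 °C was thus an isolated peak, and by day 3 it was close to its highest 16 °C value. The gene with the second highest score, Bo9g078210, was at 9.49, 2.53, 0.276, 0.141, 0 and 0.0961 TPM at 26 °C and 1.21, 1.09, 0.401, 0.0458, 0.0457 and 0.0883 TPM at 16 °C, with 0.841 TPM on day 0. It too peaked on day 1, and on days 7 to 22 it was under 0.5 TPM at both temperatures. The most abundant member, Bo4g143900, reached 478 TPM on day 1 at 26 °C, against 219 TPM at 16 °C, and on day 3 it was back at 224 TPM at 26 °C against 174 TPM. The next most abundant, Bo7g048520, had 170.1 TPM on day 1 at 26 °C against 73.1 TPM at 16 °C, and 83.4 against 42.7 TPM on day 3. Both abundant members had a high base at 16 °C, unlike the 30 members that were under 1 TPM at 16 °C on day 1.

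The edge of the list is not a natural boundary. The last member, Bo5g137840, scored 0.763 with 164 TPM on day 1 at 26 °C, 51.8 TPM on day 1 at 16 °C and 96.0 TPM on day 3 at 26 °C, its second highest column. The first gene outside, Bo1g139860, scored 0.762, with 41.1 TPM on day 1 at 26 °C, 22.9 TPM at 16 °C and 23.8 TPM on day 3 at 26 °C.

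The return on day 3 was incomplete for most members. The rule capped the day 3 excess at 1 log2 unit, and no member was 2-fold higher on that day, where 5.43% of all genes were and 0.79% were lower. Within the cap, the median excess at 26 °C was 0.55 log2 units, against 0.12 for all genes; 85 members were at 0.5 or more, 15 of them at 0.9 or more, and 7 were lower at 26 °C. For 89 of the 150 the second highest embryo column was day 3 at 26 °C, for 11 it was day 7 at 26 °C, and for 15 and 14 it was day 0 and day 1 at 16 °C. Set against day 0, 127 members were still higher on day 3 at 26 °C by some amount but 6 by 2-fold, where 4.37% of all genes were higher and 6.38% lower. At 16 °C, 1 member was 2-fold higher and 71 lower at day 22 when set against day 0, within the rule's limits, where 10.8% of all genes were higher and 47% lower. The word transient thus describes the size of the difference, not a full return.

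The 16 °C columns of days 0 and 1 are both among the columns that the score subtracts, so their difference is given as a description. No member was 2-fold higher or lower on day 1 than on day 0, where 0.0924% of all genes were higher and 0.42% lower, so the count was near the background. The median difference was 0.03 log2 units, against -0.01 for all genes. The largest gains were those of Bo3g044340, at 15.5 TPM on day 1 against 7.67 TPM on day 0, and Bo3g152750, at 6.42 against 3.02 TPM. Both stayed under 2-fold on the log2(TPM + 1) scale.

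Later temperature differences did not enter the score directly. The score did hold every later column at least 0.76 log2 units under day 1 at 26 °C, which limits the excess a member could show. The later embryo shares, recovery included, are therefore given as a description. On day 7, 17 members (11.3%) were 2-fold higher at 26 °C and none lower, where 8.6% of all genes were higher and 2.13% lower. This share was close to that of all genes, while the median difference was 0.39 log2 units against 0.06. With a pseudocount of 0.1 the share was 29.3% of members against 16.3% of all genes, so its closeness to the background rests on low values. The largest gain was that of Bo4g194060, at 42.8 TPM at 26 °C against 4.74 TPM at 16 °C on day 7. This gene had also the largest day 1 difference of any member, at 81.7 against 12.4 TPM, and it fell back between them, to 17.9 TPM on day 3 at 26 °C.

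On days 15 and 18 few members were higher at 26 °C. The score held these columns under day 1 at 26 °C, which can lower that share, so nothing is read from its gap to all genes. On day 15, 3 were 2-fold higher and 11 lower, where 10.4% of all genes were higher and 14.4% lower. On day 18, 2 were higher and 34 (22.7%) lower, where 14.1% and 18.8% of all genes were. By then 89 of the 150 were under 1 TPM at 26 °C, which limits what a 2-fold count can show. With a pseudocount of 0.1, 31.3% of members were lower on day 15 and 44% on day 18, against 27.7% and 33.5% of all genes. Among genes at 5 TPM or more at 16 °C, 8.89% of members were lower on day 15 and 53.7% on day 18, against 24.2% and 35.3% of all genes. The standing of the lower shares against all genes thus depends on how low values are treated. Bo3g044340 was at 0.130 TPM at 26 °C against 8.89 TPM at 16 °C on day 18, and Bo5g136200 at 4.94 against 33.3 TPM. On day 22, 25 (16.7%) were higher and 11 (7.33%) lower, where 26% and 15% of all genes were, so both shares were under those of all genes. The limits that the rule set on these columns can lower both shares, so nothing is read from the gap. After rescaling without the 10 most abundant genes of every embryo column, 5.33% of members were higher on day 22, against 13.4% of all genes. Bo5g025830 was at 37.7 TPM at 26 °C against 7.89 TPM at 16 °C on day 22, while the last member Bo5g137840 was at 1.29 against 27.1 TPM.

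Few members differed 2-fold between seeds moved back to 16 °C and seeds kept at 26 °C. Low values limit these counts, and the score held these columns under day 1 at 26 °C. On day 18, 93 of the 150 members were under 1 TPM in recovery and 89 at 26 °C, and on day 22 they were 66 and 72. With a pseudocount of 0.1, 6.67% of members were higher in recovery on day 22, against 8.39% of all genes. Against 26 °C, 1 member was 2-fold higher in recovery on day 18 and none lower, where 2.16% of all genes were higher and 3.66% lower. On day 22 it was again 1 and none, where 2.67% and 1.09% of all genes were. These were Bo1g075710, at 7.68 TPM in recovery against 3.22 TPM at 26 °C on day 18, and Bo9g172200, at 10.6 against 4.31 TPM on day 22. Against 16 °C, recovery had 1 member higher and 30 lower on day 18 (6.87% and 10.3% of all genes), and 20 higher and 7 lower on day 22 (18.4% and 9.17%). Recovery and 26 °C share the 16 °C column they are set against.

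The endosperm table took no part in choosing the members and gives an independent view of the same days of warming. It lists 115 of the 150 members (76.7%), close to the 74.1% of all embryo genes that it lists, and of these 99 reached 1 TPM in at least 1 endosperm column of days 0 to 3, 2 of them on day 1 at 26 °C alone. On day 1, 34 of the 99 (34.3%) were 2-fold higher at 26 °C and none lower, where 7.43% of 12604 genes were higher and 2.77% lower. The median difference was 0.72 log2 units, against 0.11 for all genes, and 93 of the 99 differed upward by some amount. On day 3, 26 (26.3%) were higher and 3 lower, where 9.79% and 3.7% of all genes were, with a median of 0.52 against 0.12. The authors' listing chose these genes, by a rule that is not known here.

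No condition on endosperm values entered the choice of members, so their course from day 1 to day 3 was free there. Of the 34 members that were 2-fold higher in endosperm on day 1, 19 (55.9%) were also 2-fold higher on day 3, against 66.1% of the 937 endosperm genes higher on day 1. The day 3 difference was the smaller for 21 of them (61.8%), against 58.4%, so both shares lay near those of all such genes. A further 7 were higher on day 3 but not on day 1. A like share of all genes is not at hand, so nothing is read from that count. Day 1 at 26 °C was the highest of the 5 endosperm columns of days 0 to 3 for 59 members (59.6%, against 27.2% of all genes), and day 3 at 26 °C for 23 (23.2%, against 29.2%). Bo3g175440, with the largest day 1 gain among members at 5 TPM or more, was at 11.8 TPM at 26 °C against 1.99 TPM at 16 °C on day 1 and at 4.59 against 1.44 TPM on day 3, with 1.92 TPM on day 0. Its endosperm course followed its embryo course, at 5.0 against 0.381 TPM on day 1 and 1.23 against 0.372 TPM on day 3. Bo3g028430, with the next largest gain, did not fall back in endosperm, at 61.3 against 17.0 TPM on day 1 and 71.8 against 15.6 TPM on day 3. In embryo the same gene was at 81.0 against 38.1 TPM on day 1 and 45.4 against 25.4 TPM on day 3.

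Embryo genes whose excess lasted were set beside the members, though the sets differ in more than duration. On day 1 in embryo their median difference was 1.59 log2 units, against 1.29 for the members. The 464 embryo genes that were 2-fold higher at 26 °C on both days 1 and 3 hold no member, and 399 of them reached 1 TPM in endosperm on days 0 to 3. In endosperm 65.9% of these had a 2-fold excess at 26 °C on day 1 and 65.7% on day 3, so the members' shares of 34.3% and 26.3% lay between theirs and those of all genes. With 1 value per group this difference was not tested.

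**Figure D2:**
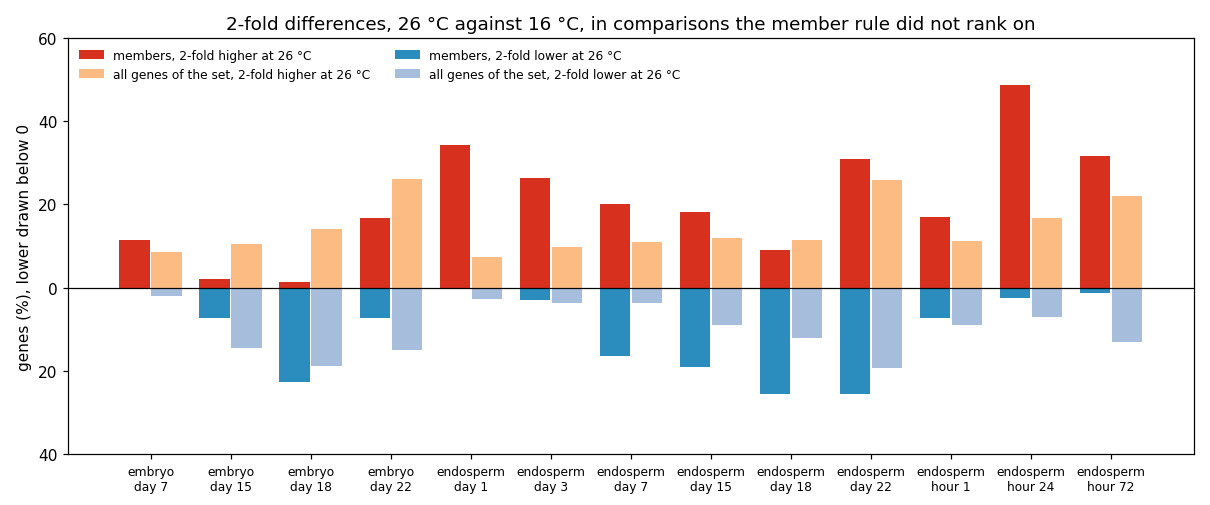
Share of genes (%) that differed 2-fold between 26 °C and 16 °C in embryo from day 7, in endosperm from day 1 and in the endosperm hour series, with higher shares drawn upward and lower shares downward; day 18 uses the columns labelled 26 °C. The left bar of each pair is the members and the right bar all genes of the set; the members' upward share is 34.3% against 7.43% in endosperm on day 1 and 48.8% against 16.8% at hour 24.

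The members were not one kind of gene with respect to tissue. In the day 0 columns at 16 °C, 28 of the 115 members in both tables (24.3%) were at least 32-fold higher in endosperm than in embryo and at 20 TPM or more there, against 3.18% of all 9726 genes in both tables. With an 8-fold limit the shares were 31.3% and 5.77%. This split was made after the values were seen, and it sets levels side by side from tables that were normalized separately. The rule favours genes that are low in embryo on day 0, and the split uses the same column. For these 28 the name embryo genes goes against the data: they were endosperm or seed coat transcripts by level, at a median of 9.51 TPM in embryo and 337 TPM in endosperm on day 1 at 26 °C. The highest scorers Bo5g008470 and Bo9g078210 are both among them, and so is the last member Bo5g137840. Bo5g008470 was at 964 TPM at 26 °C against 863 TPM at 16 °C in endosperm on day 1, a difference under 2-fold where embryo had 56.7 against 14.8 TPM.

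In endosperm these 28 differed little on day 1, with 2 of them (7.14%) 2-fold higher at 26 °C and none lower. Among all genes 7.43% were higher and 2.77% lower, so the share was near the background. The median difference of the 28 was 0.26 log2 units, against 0.11 for all genes. In embryo their median difference was 1.54 log2 units. The rule used the embryo columns, so the day 1 rise of these 28, here and in their percentages that follow, was favoured by their choice. It is given as a description. Their embryo level was a median of 4.30% of their endosperm level on day 1 at 26 °C (range 0.952% to 7.60%), against 1.45% on day 1 at 16 °C; it was 1.58% on day 3 at 26 °C against 1.05% at 16 °C, and 1.34% on day 0. The 281 endosperm-preferential genes outside the members moved the same way in the embryo columns. Their median embryo level was 2.31% of the endosperm level on day 1 at 26 °C, against 1.15% at 16 °C, and 1.10% against 0.921% on day 3. Their summed embryo TPM was 2059 on day 1 at 26 °C against 958 at 16 °C, 1077 against 783 on day 3 and 2872 against 582 on day 7. Abundant genes weigh on these sums: the highest single value on day 7 was 814 TPM at 26 °C and 35.9 TPM at 16 °C. The median TPM of the 281 was 1.99 against 0.930 on day 1, 1.22 against 0.904 on day 3 and 1.92 against 0.595 on day 7. Of these 281 genes, 58 of the 255 at 1 TPM or more in an embryo column (22.7%) were 2-fold higher in embryo on day 1 at 26 °C and 1 lower. Among all genes 9.26% were higher and 3.93% lower. The share of endosperm or seed coat material in the dissected embryos was not measured, and its part in the embryo values of these members was not tested. More cells of a tissue in a sample and more RNA per cell cannot be told apart in such bulk samples.

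**Figure D3:**
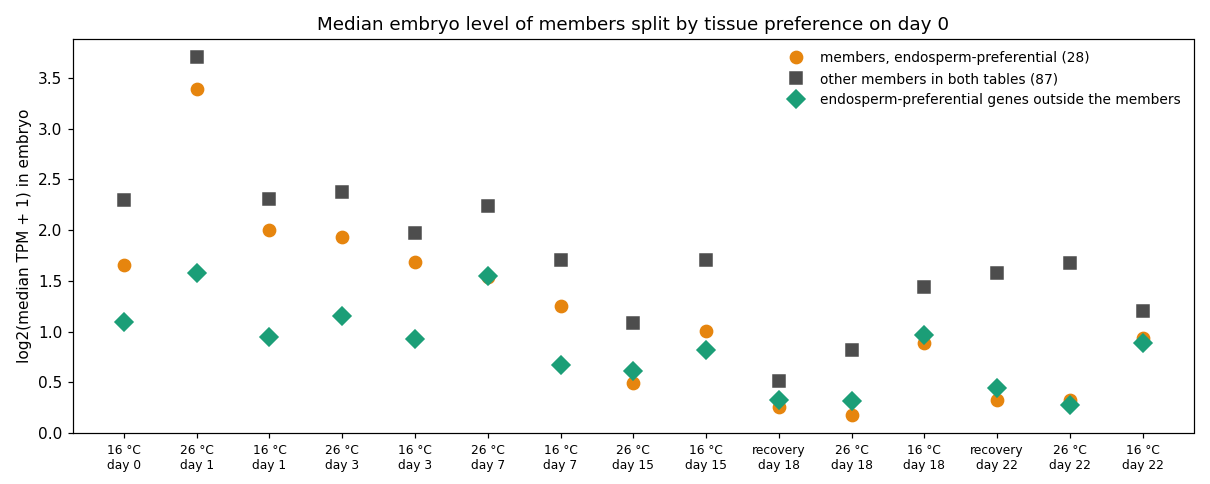
Median embryo level, as log2(median TPM + 1), in each of the 15 embryo columns for the 28 endosperm-preferential members, the 87 other members in both tables and the 281 endosperm-preferential genes outside the members. All 3 groups stand highest on day 1 at 26 °C; the 281 genes are nearly as high on day 7 at 26 °C, and both endosperm-preferential groups are lower at 26 °C than at 16 °C on days 18 and 22.

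The other 87 members in both tables were less tied to endosperm by level. They were at a median of 12.1 TPM in embryo and 15.6 TPM in endosperm on day 1 at 26 °C. In endosperm 32 of the 71 that passed the filter (45.1%) were 2-fold higher at 26 °C on day 1, with a median difference of 0.88 log2 units, and 24 (33.8%) on day 3, with a median of 0.65. Among all genes 7.43% were higher on day 1 and 9.79% on day 3. With the 8-fold limit the day 1 share was 49.2% of 63. The abundant member Bo4g143900 was at 400.5 TPM at 26 °C against 197 TPM at 16 °C in endosperm on day 1, near its embryo levels, and stayed up on day 3 at 415 against 152 TPM. Bo7g048520 was at 287 against 117 TPM on day 1 and 202 against 139 TPM on day 3, so that its excess shrank in both tissues.

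**Figure D4:**
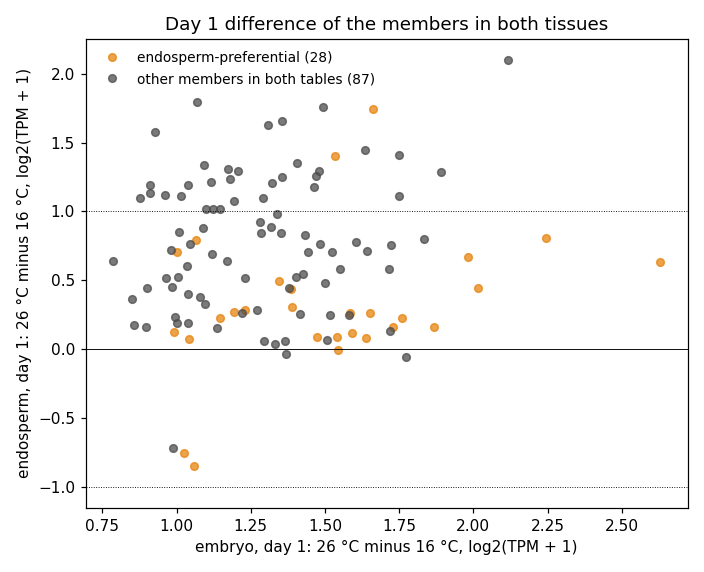
Day 1 difference between 26 °C and 16 °C in log2(TPM + 1), embryo on the horizontal and endosperm on the vertical axis, 1 point per member in both tables (n = 115, the 16 below 1 TPM in endosperm included); dotted lines mark 2-fold. The horizontal positions were fixed by the rule. Most endosperm-preferential members lie between 0 and 1 on the vertical axis, with 2 above 1, and no member lies below -1.

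The hour series of endosperm, made with the same standard library kit as days 0 to 3, had 82 of the 115 members at 1 TPM or more in at least 1 of its 6 columns. What its hours are counted from is not stated in the labels. The columns of this series stood apart from the others of the tissue: the 281 endosperm-preferential genes outside the members had medians of 0.125 to 0.663 TPM in it, and of 76.7 to 93.2 TPM on days 0 to 3. At hour 24, 40 members (48.8%) were 2-fold higher at 26 °C and 2 lower, where 16.8% of 13203 genes were higher and 7.12% lower. At hour 1 the members' numbers were 14 (17.1%) and 6, where 11.2% and 8.89% of all genes were, and at hour 72 they were 26 (31.7%) and 1, where 22% and 13.1% were. At hours 1, 24 and 72, 2, 3 and 7 of the 82 passed the filter through the 26 °C column of that hour alone. This favours a count of members as higher, most at hour 72. Among genes at 5 TPM or more at 16 °C, 22.2% of members were higher at hour 72, against 13.2% of all genes. The members' median difference was 0.02, 0.96 and 0.50 log2 units at hours 1, 24 and 72, against 0.05, 0.12 and 0.15 for all genes. Of the 3 hours, hour 24 thus showed the widest excess over all genes. At hour 1 the share of members depended on low values, at 9.30% against 7.31% of all genes at 5 TPM or more at 16 °C.

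Of the 40 members higher at hour 24, 14 were still 2-fold higher at hour 72. Of the 34 that could be read on days 0 to 3, 16 were higher in endosperm on day 1. Like shares of all genes are not at hand, so nothing is read from these overlaps. None of the 40 was endosperm-preferential. Of the 28 endosperm-preferential members, 25 were under 1 TPM at hour 24 at 26 °C and 24 at 16 °C. They had been at a median of 244 TPM on day 1 at 16 °C. The other members in both tables were 2-fold higher at hour 24 in 40 of 73 cases (54.8%), against 16.8% of all genes. The embryo genes with a lasting excess had a smaller share at that hour, 27.2% of 401, although their share on day 1 was larger; this difference was not tested. Bo2g030310 showed the largest gain, at 53.0 TPM at 26 °C against 1.24 TPM at 16 °C at hour 24, where hour 1 had 14.5 against 17.9 TPM and hour 72 had 9.96 against 9.27 TPM. Its difference was confined to the middle of the series among these 3 times, and on the day scale it was at 27.0 against 9.27 TPM on day 1 and 25.3 against 4.97 TPM on day 3. Bo4g143900 was at 251 TPM at 26 °C against 63.9 TPM at 16 °C at hour 24, and at 195 against 247 TPM at hour 1. Bo1g075710, an endosperm-preferential member, went the other way at hour 24, at 34.7 against 232 TPM.

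In late endosperm, made with the Ovation kit and therefore not set against the earlier days, the members split along the line of tissue preference. Among the 110 members at 1 TPM or more, 22, 20, 10 and 34 showed a 2-fold excess at 26 °C on days 7, 15, 18 and 22, while 18, 21, 28 and 28 were lower. The background was 11%, 12%, 11.5% and 25.9% of 14601 genes higher and 3.74%, 8.94%, 12.1% and 19.4% lower. Of the 28 endosperm-preferential members, 15, 14, 15 and 21 were lower and 2, 5, 2 and 3 higher, and their median difference reached -2.49 log2 units on day 22. Of the 82 other members that passed the filter, 3, 7, 13 and 7 were lower and 20, 15, 8 and 31 higher. Of the 281 endosperm-preferential genes outside the members, 7.83%, 26.0%, 30.6% and 63.3% were lower and 18.1%, 13.2%, 10.3% and 7.83% higher on these days. On day 7 these genes were thus more often higher than lower, unlike the members of the same preference, and from day 15 both groups were more often lower. The day 18 values come from the column labelled 26 °C, which stood in an unlike order to the recovery column, as given with the recovery values; whether the labels of these columns are exchanged was not tested. Bo1g075710 was at 0.483 TPM at 26 °C against 81.8 TPM at 16 °C on day 22, and Bo5g034880, which is not endosperm-preferential, at 45.8 against 2.42 TPM.

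Recovery went with higher levels of the endosperm-preferential members on day 22. Against 26 °C, 16 of the 110 members were 2-fold higher in recovery and 5 lower, where 3.43% of all genes were higher and 2.2% lower. Of the 16, 14 were endosperm-preferential, out of the 28, while 2 of the 82 other members were higher. The endosperm-preferential genes outside the members were higher in 21.7% of cases, so the direction was not the members' own. Bo3g044340 had 212 TPM in recovered seeds, 35.6 TPM at 26 °C, against 953 TPM at 16 °C. On day 18 the columns stood in another order: in the column labelled recovery 33 members were 2-fold higher and 21 lower than in the column labelled 26 °C (22.2% and 8.7% of all genes), and 15 of the 21 lower ones were endosperm-preferential. The median of these 28 on day 18 was 37.5 TPM in the column labelled recovery and 84.3 TPM in the one labelled 26 °C, against 134 TPM at 16 °C. Set against 16 °C, recovery had 37 members higher and 28 lower on day 18 (27.3% and 17.6% of all genes), and 26 higher and 24 lower on day 22 (21.6% and 17%).

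**Figure D5:**
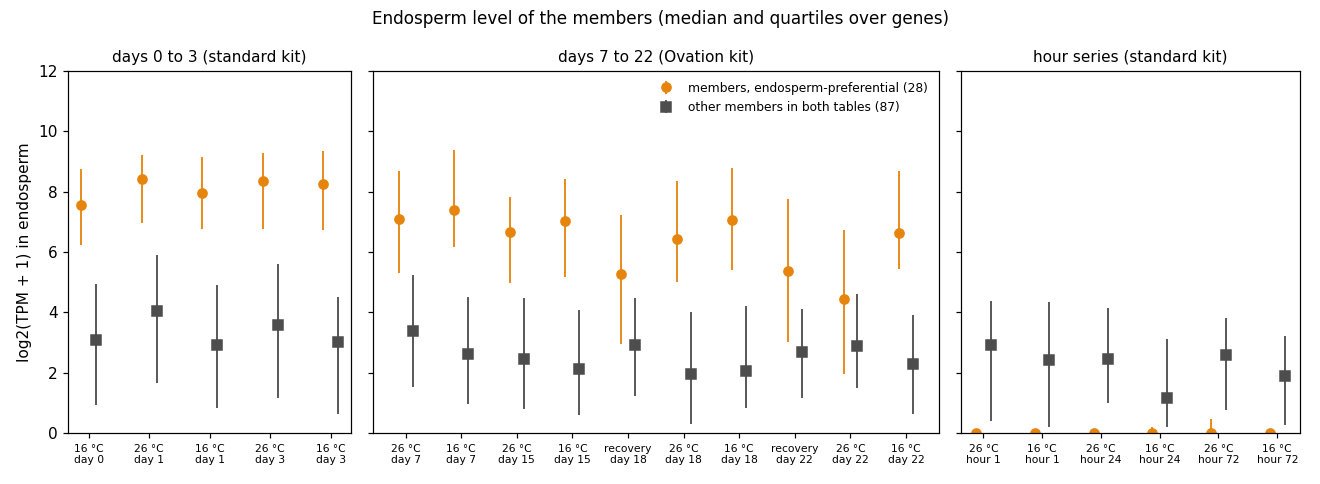
Endosperm level of the members in log2(TPM + 1), as medians with quartiles over genes, for the 28 endosperm-preferential members and the 87 others, in the 3 sets of columns. The 28 stand near 8 on days 0 to 3, are lower at 26 °C than at 16 °C on day 22, and lie at or near 0 in the hour series. There the median of the 87 others is higher at 26 °C than at 16 °C at each of the 3 times. At hour 1 the median of their gene-by-gene differences was only 0.07 log2 units, over the 73 that passed the filter.

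The most extreme late level among the members was that of Bo8g106030, named after its values were seen. It was at 3.88 TPM in embryo on day 1 at 26 °C against 0.877 TPM at 16 °C, and at 4.84 against 3.29 TPM in endosperm. In late endosperm, made with the Ovation kit, it was at 89308 TPM at 26 °C against 14889.8 TPM at 16 °C on day 15. In embryo from day 7, made with the standard kit, it was between 0.126 and 0.80 TPM. Levels made with different kits and normalized apart are given side by side only.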

How the data were processed

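RNA was sequenced from 45 embryo and 62 endosperm libraries. The deposited tables hold TPM, 1 column per group (15 embryo, 21 endosperm), made by the authors with tools that include cutadapt 1.9.1, STAR 2.5 and featureCounts, per the submitters' processing notes; the sources used here do not give the genome build, the annotation or how libraries were combined. The tables hold genes the authors selected. Per the labels' protocols, endosperm of days 7 to 22 used the Ovation kit and all else a standard kit.

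Genes that reached 1 TPM in no column of a set (embryo; endosperm days 0 to 3, days 7 to 22, hours) were not counted, and 2 columns were compared as log2(TPM + 1) with pandas 2.3.3 and numpy 2.4.6. The limma test planned for library values could not be run on 1 value per group. The calculations were tested on simulated data. Members, groups and tests were chosen with earlier results of these data known. In each comparison, members named were at most the 2 with the largest gain and the 2 with the largest loss at 5 TPM or more, with the first and last ranks and the 2 most abundant; others are said to be singled out or recur from another comparison. Alternatives were the pseudocount, the filter, 2 other scalings and the length and ranking of the list.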

Additional observations from a re-analysis of the deposited data

Results flagged for a closer look

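Members that were 2-fold higher in one tissue and 2-fold lower in the other at 26 °C on the same day were looked for among the 115 members in both tables. Each group has 1 value, so the differences between tissues were not tested, and on these days embryo and endosperm libraries were made with different kits. On day 7, 4 members were higher in embryo and lower in endosperm (3.48% against 0.195% of all genes in both tables), and all 4 are endosperm-preferential. Among them Bo3g044340 was at 26.1 TPM at 26 °C against 7.67 TPM at 16 °C in embryo, and at 438 against 1727 TPM in endosperm. On day 15, 2 members were lower in embryo and higher in endosperm (1.74% against 0.936% of all genes in both tables), neither of them endosperm-preferential: Bo9g141110 was at 0.713 TPM at 26 °C against 4.03 TPM at 16 °C in embryo, and at 54.9 against 25.6 TPM in endosperm. On day 18, 1 member did the same (0.870% against 0.853% of all genes in both tables) in the column labelled 26 °C, a share near the background: Bo1g020320 was at 13.9 TPM at 26 °C against 31.3 TPM at 16 °C in embryo, and at 139 against 36.2 TPM in endosperm. On day 22, 3 members were higher in embryo and lower in endosperm (2.61% against 0.483% of all genes in both tables): Bo1g075710 was at 9.42 TPM at 26 °C against 3.06 TPM at 16 °C in embryo, and at 0.483 against 81.8 TPM in endosperm. These genes were chosen after their values were seen.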

How the results depend on the processing

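Shares of members that were 2-fold higher were recomputed for 11 comparisons under 99 alternatives, of which 77 stayed within 1.5 times the reported share. For endosperm on day 1 and at hour 24 every alternative did, and the members' share was at least 2.31 times that of all genes. On endosperm day 3 the share was 16.2% after median centring, against 7.32% of all genes. At hour 1 it was 10.6% with members ranked at a pseudocount of 0.1, against 11.2% of all genes. It was 9.30% among genes at 5 TPM or more at 16 °C, against 7.31% of all genes. That filter was added after seeing the data, as was the list without endosperm-preferential members. With a pseudocount of 0.1 the embryo shares were 29.3% on day 7, 4.67% on day 15, 4.67% on day 18, 3.33% for day 1 over day 0 at 16 °C and 6.67% for recovery over 26 °C on day 22, against 16.3%, 19.5%, 21.0%, 0.538% and 8.39% of all genes. Rescaling without the 10 most abundant genes of every column gave 0.667% on day 18, 5.33% on day 22 and 1.33% for recovery. Of all genes, 10.9%, 13.4% and 4.20% were higher. The filter at 5 TPM gave 4.44% on day 15, 0% on day 18 and 0% for recovery. The remaining changes rest on 1 to 4 genes: day 18 was 2.67% after median centring, 0% and 0.669% for the top 75 and 300 genes, 0.787% with the other ranking and 0.820% without endosperm-preferential members, and recovery was 0% and 1.00% for the top 75 and 300 genes and 1.57% with the other ranking. The share of all genes was 17.3% on day 18 after median centring. Beside the other lists it was 14.1% on day 18 and 2.67% for recovery. The cause of the changes in the members' shares was not tested. Ranking with a pseudocount of 0.1 kept 85 of the 150 members. No paired analysis was possible because the tables hold 1 column per group, and leaving out replicates was not run for the same reason. TPM keeps no depth, so no counting error can be given.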

Other observations

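The genes outside the members that were most like their mean embryo profile over the 15 columns were Bo6g004620 and Bo3g019070, with Pearson's r of 0.982 and 0.979. The columns share the embryo table and its general decline of low genes with time. Bo6g004620 was at 10.6 TPM on day 1 at 26 °C against 2.71 TPM at 16 °C, and at 3.93 against 1.28 TPM on day 3. Both failed the day 3 condition, at 1.11 and 1.04 log2 units. Bo3g019070 would have missed the list without it too, since its score of 0.732 was under the 0.763 of the last member. The members themselves had a median r of 0.908 to their own mean, which the rule favours, and the lowest was 0.623.

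A like score was computed in endosperm over its 5 columns of days 0 to 3, with the same day 3 condition. Its top 150 genes shared 8 genes (5.33% of each list) with the members. Of the 118 of them that the embryo table lists, these were 6.78%, against 1.18% of all genes in both tables. Identifier numbers were compared too, since numbers close together may mark neighbouring genes, which the sources used here do not state. Of 156 listed identifiers within 20 in number of a member and at most 2 listed genes away, 2 (1.28%) were members, against 1.14% of all embryo genes. They are the pair Bo3g003650 and Bo3g003660, chosen after their values were seen, at 45.0 and 23.7 TPM on day 1 at 26 °C against 21.7 and 12.2 TPM at 16 °C.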
